A study of Homo sapiens with 8 samples.

Results

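Poly(A) RNA of HEK293 cells, a human cell line derived from embryonic kidney, was treated with bisulfite and sequenced to read the methylation of its cytosines, and the nuclear-encoded part of that methylome is described here. The members were chosen by position and depth alone, with no use of the methylation level: every cytosine on chromosomes 1 to 22, X and Y that was covered by at least 20 reads. There were 6649767 such cytosines, 8.75% of the 76007404 nuclear positions listed and part of a table of 76013928 positions in all. They held 87.3% of the nuclear cytosine calls. The series held 8 samples, of which 6 were crosslinking libraries of the RNA methyltransferases NSun3 and NSun6 that were not used here. The other 2, both HEK293 cells with no genotype change or treatment given in the labels, were the bisulfite samples. RNA was extracted with Trizol, its polyadenylated fraction was taken with oligo-dT beads, and conversion was done with a commercial RNA bisulfite kit. The deposited table pools both samples, so no value below has an error between replicates and no test between groups was possible. The levels of named cytosines and the main shares are given with exact 95% binomial (Clopper-Pearson) intervals, and a count of 0 with the share that 3 counts would make of the total. Both cover counting error only: reads may include PCR copies, and neighbouring cytosines of a transcript share their reads and are not independent.

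5-Methylcytosine (m5C) is made in RNA by the NSUN family of methyltransferases and by TRDMT1. NSUN2 and NSUN6 are best known as tRNA methyltransferases and are also the enzymes to which m5C in mRNA has been ascribed, NSUN2 at cytosines followed by guanines and NSUN6 at the first cytosine of CUCCA. Bisulfite turns unmethylated cytosine into uracil, which is read as thymine, and leaves m5C as cytosine. A cytosine inside a stable RNA hairpin can also escape conversion, as can a modification other than m5C, so that the level of a cytosine is the share of its reads that still show C. For this reason each cytosine at a level of at least 20% was placed beside its neighbours. It was called isolated where at least 3 other covered cytosines lay within 30 nt on the same strand and none of them reached 20%, and clustered where at least 2 of them did.

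Isolated cytosines that recur in the results are shown first, because a lone unconverted C in an otherwise converted sequence is the pattern on which the account turns. Each line gives 21 nt of the GRCh37 (hg19) reference in the sense of the RNA, with the cytosine in capitals as base 11, together with a following CTCCA or GGG (after any base) where it was present.
COL4A5, coding sequence, chrX:107911644-107911644, plus strand: ccctggtgtgCaGGGtccccc
NECTIN2, coding sequence, chr19:45375183-45375183, plus strand: ccctctgcatCTCCAaagagg
RPSA, coding sequence, chr3:39450197-39450197, plus strand: gtgttatatcCTCCAggaata
OSBPL8, 5′ UTR, chr12:76953256-76953256, minus strand: tagacgcttaCgGGGcctcgg
DGCR2, 5′ UTR, chr22:19109748-19109748, minus strand: ggccttccagCcgccccgggg
FURIN, 3′ UTR, chr15:91425541-91425541, plus strand: gaggccacctCTCCAagggct
NSUN2, 3′ UTR, chr5:6600023-6600023, minus strand: cccaaggcagCgGGGgcccac
LINC02593, exon of a long non-coding RNA, chr1:854196-854196, minus strand: aggtcagtctCaggagacagt

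The HEK293 poly(A) methylome was almost fully unmethylated. No methylated read was seen at 6054676 cytosines (91.1%), and over all members 0.159% of the cytosine calls were methylated. Levels of at least 20% were found at 18690 cytosines, a background of 0.281% (0.277 to 0.285) for the counts that follow. At least 50% was reached by 4692 cytosines (0.0706%, 0.0686 to 0.0726) and at least 80% by 1783 (0.0268%, 0.0256 to 0.0281). Full methylation, with no converted read, was recorded at 1078 cytosines. The distribution fell steeply from 0. Its bands are narrower below 10%. Among the equal bands from 10% up, the counts fell and rose again only in the last, from 90 to 100%. Of the 1465 cytosines in that band 1317 (89.9%), and of the 1078 without a converted read 1028 (95.4%), lay in the stretches of clustered cytosines with a median level of at least 95% that are described further on.

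**Figure D1:**
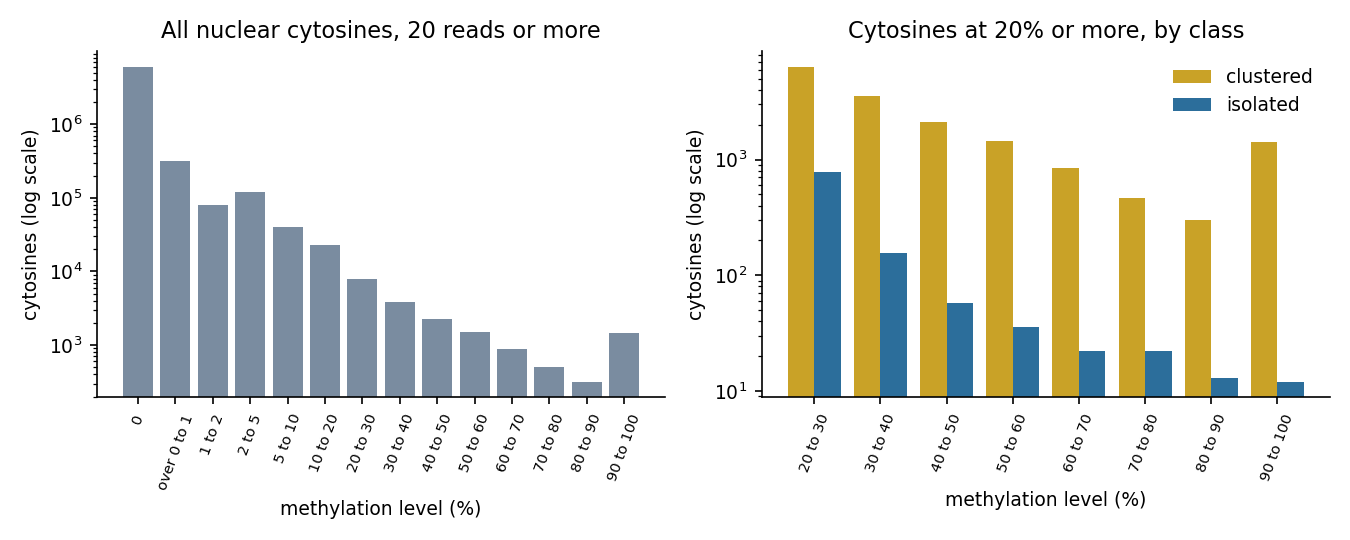
Number of nuclear cytosines (log scale) in each band of methylation level (%), for all 6649767 cytosines with at least 20 reads (left) and for those at 20% or more, divided into clustered and isolated (right). Clustered cytosines outnumber isolated ones in every band, and the last band from 90 to 100% rises again among the clustered ones only.

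Most of these high levels came in groups. Of the 18690 cytosines at 20% or more, 16466 (88.1%) were clustered and 1098 (5.87%) were isolated, which is 0.248% and 0.0165% of all members. A further 1016 had exactly 1 neighbour at 20% or more, and 110 had too few covered neighbours to be placed. The isolated cytosines had a median level of 24.0% and the clustered ones 34.5%. In the band from 20 to 30% lay 778 isolated cytosines, and only 105 reached 50% and 25 reached 80%. Clustered cytosines made up 96.1% of those at 80% or more. For 249 isolated cytosines the lower bound of the interval was itself at or above 20%.

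Depth set how firmly a level could be read. Coverage had a median of 55 reads per member, with a 5th to 95th percentile of 21 to 575. The deepest position, on chromosome 11 opposite an intron, had 1506618 reads and a level of 0.0469%. With 0 methylated of 20 reads a level of up to 15% remains possible, and at the median coverage up to 5.45%. A level of 20% has an interval of 5.73 to 43.7% on 20 reads and of 12.7 to 29.2% on 100 reads. The share at 20% or more fell along with depth, from 0.434% (0.426 to 0.441) among cytosines with 20 to 49 reads to 0.0754% (0.0671 to 0.0844) among those with at least 500. Isolated cytosines fell from 2.49 to 0.655 per 10000 over the same bands. At exactly 20 reads, just inside the coverage minimum, 0.666% reached 20% (0.631 to 0.701), and at 19 reads, just outside, 0.709% did (0.675 to 0.744).

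The cell type was checked by coverage of marker transcripts. Covered exonic cytosines were found for KRT8 and KRT18, keratins of simple epithelia (448 and 368 cytosines), for VIM, the intermediate filament vimentin (595), for the neurofilament genes NEFL and NEFM (549 and 589) and for the kidney factor PAX2 (53). None was found for PTPRC, CD3E, ALB, HBA1, COL1A2, CDH5 or LYZ, which mark blood, liver, connective tissue and vessels. On the strand of an annotated gene lay 96.9% of the members, and 84.3% lay in its exons. Opposite a gene lay 1.25%, and outside genes 1.83%.

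Among transcript regions, coding sequence was the least methylated and both untranslated regions lay above it. In 5′ UTRs 907 of 273645 cytosines (0.331%, 0.310 to 0.354) reached 20%, in 3′ UTRs 4637 of 1839499 (0.252%, 0.245 to 0.259), and in coding sequence 1759 of 2793863 (0.0630%, 0.0601 to 0.0660). These 3 intervals do not overlap. In the 3′ UTR exons searched for the inverted repeats described further on, cytosines outside repeat arms had 0.0740% (0.0700 to 0.0783). Without regard to GC content and coverage, isolated cytosines followed the same order, with 3.14 per 10000 in 5′ UTRs (86 cytosines), 1.46 in 3′ UTRs (268) and 0.666 in coding sequence (186). Bisulfite reads are aligned after C-to-T conversion, so the 31 nt around each cytosine at 20% or more were converted and counted in the genome. A window with 1 copy was found for 79 of the isolated cytosines in 5′ UTRs, 118 in 3′ UTRs and 174 in coding sequence. Over all covered cytosines of each region these are 2.89, 0.641 and 0.623 per 10000. Copies were not counted for cytosines below 20%, so these are not rates among cytosines with a window of 1 copy. Over all cytosines at 20% or more, 75.6% had a window with more than 1 copy, among the clustered ones 77.2%, and among those at 80% or more opposite an exon 86.0%, so that their reads may belong elsewhere. Exons of non-coding genes had 0.191% (0.174 to 0.208) at 20% or more and pseudogene exons 0.102% (0.0854 to 0.122). Introns, which were shallower with a median coverage of 30 reads, had 0.847% (0.828 to 0.867). The highest share was found at cytosines opposite an exon, at 3.03% (2.84 to 3.22), where 944 of the 959 were clustered.

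**Figure D2:**
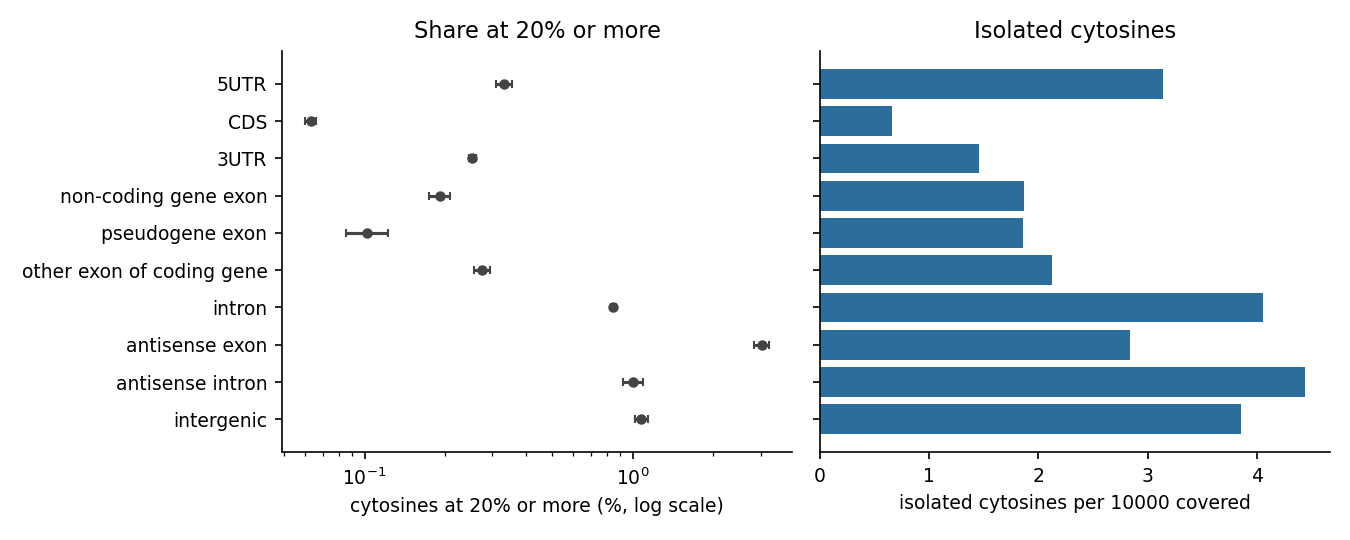
Share of cytosines at a level of 20% or more (left, percent on a log scale, points with exact 95% intervals over cytosines) and isolated cytosines per 10000 covered cytosines (right) in 10 annotation classes. Coding sequence is lowest on both scales, and the cytosines opposite an exon have the highest share at 20% or more.

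Coverage and base composition moved with the region, and the order of the regions was therefore read within bands of both. The share at 20% or more did not run in 1 direction with the GC content of the surrounding 51 nt. It was 0.428% below 30%, 0.0876% at 40 to 50%, 0.375% at 50 to 60%, 0.248% at 70 to 80% and 1.05% (0.998 to 1.11) at 80% or more. Isolated cytosines numbered 0.568 per 10000 at 40 to 50% and 5.43 at 80% or more. Among cytosines with at least 100 reads and a local GC content of 60 to 70%, the share was 0.0289% (0.0236 to 0.0350) in coding sequence, 0.105% (0.0634 to 0.164) in 5′ UTRs and 0.199% (0.177 to 0.222) in 3′ UTRs, and in introns of that band 0.716% (0.566 to 0.894). In all 6 combined bands of GC content (50 to 60% and 60 to 70%) and coverage (20 to 49, 50 to 99 and at least 100 reads) the 5′ UTR share lay below the 3′ UTR share, the reverse of the order over all cytosines. Coding sequence was below both except at a GC content of 50 to 60% with at least 100 reads. There 0 of 11604 cytosines reached 20% in 5′ UTRs (upper bound 0.0318%) against 24 of 367137 in coding sequence (0.00654%, 0.00419 to 0.00973). The 3′ UTR shares of these bands include the inverted-repeat arms described further on. Outside the arms, at all coverages, the 3′ UTR share was 0.0797% at a GC content of 50 to 60% and 0.136% at 60 to 70%. The order of the regions without arms in each coverage band, and at other GC contents, was not tested.

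The share changed along the mRNA. It was 0.177% (0.161 to 0.195) in the most 5′ of 10 equal bins of the coding sequence and 0.0301% (0.0244 to 0.0367) in the most 3′ one. Counted from the start codon, it fell from 0.237% (0.201 to 0.277) in the first 50 nt to 0.0678% (0.0614 to 0.0747) between 400 and 800 nt. In 3′ UTRs it rose from 0.0983% in the bin next to the stop codon to 0.354% (0.328 to 0.382) in bin 4 of 10 and was 0.110% (0.0869 to 0.137) in the last. Most of the cytosines behind these shares were clustered, 387 of 434 in the first coding bin and 582 of 666 in 3′ UTR bin 4. From the first coding bin to the last, mean local GC content went from 61.2 to 57.4% and median coverage from 64 to 90 reads. Position was not separated from clustering, GC content or coverage. Next to exon edges, cytosines within 5 nt of a splice site had 0.147% (0.118 to 0.181) at 20% or more and those 25 to 50 nt away 0.0451% (0.0400 to 0.0507). Farther away the share was higher again, with 0.164% (0.153 to 0.174) at 100 to 200 nt and 0.213% (0.207 to 0.219) beyond 200 nt. These distances pool 5′ UTR, coding sequence and 3′ UTR, so distance was not separated from region.

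**Figure D3:**
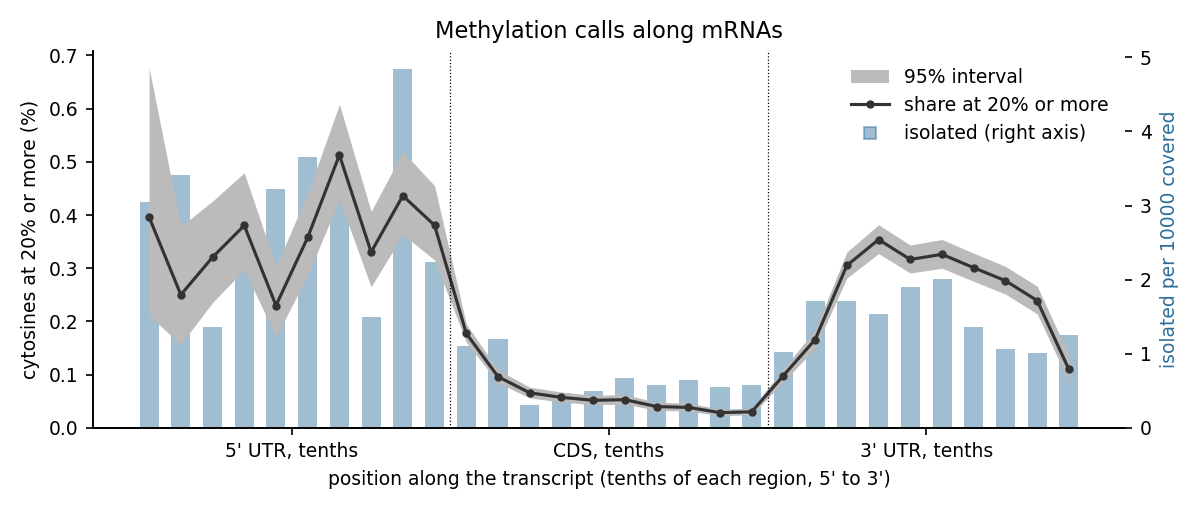
Share of cytosines at 20% or more (line with exact 95% interval, left axis, percent) and isolated cytosines per 10000 covered (bars, right axis) in 10 bins each of 5′ UTR, coding sequence and 3′ UTR. The share is 0.177% in the first bin of the coding sequence and 0.0301% in its last, and it has its 3′ UTR maximum of 0.354% in bin 4 of 10. Position is not separated from clustering, GC content or coverage.

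By the 2 bases that follow, the share at 20% or more was near equal at CG (0.311%, 0.298 to 0.324) and CHG (0.313%, 0.305 to 0.322) and lower at CHH (0.262%, 0.257 to 0.267), where H is any base but G. The isolated ones were spread more unevenly, with 4.30 per 10000 at CG, 2.85 at CHG and 0.653 at CHH. Guanine stood 2, 3 and 4 bases after the cytosine in 67.1%, 54.6% and 54.9% of the isolated cytosines, against 30.4%, 28.6% and 29.3% of all members and 32.2%, 32.5% and 31.6% of the clustered ones. Among the 105 isolated cytosines at 50% or more it stood there in 76.2%, 61.9% and 64.8%.

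A run of guanines after the cytosine was commoner at isolated cytosines in unique sequence than at the others. By the copies of the converted 31 nt, 537 isolated cytosines had a window with 1 copy and 561 (51.1%) a window with more. The first had a mean local GC content of 65.9% and a median level of 26.7%, the second 57.4% and 22.6%. The motif CNGGG, a cytosine followed after any base by GGG, began at 35.6% (31.5 to 39.8) of the isolated cytosines with a unique window and at 9.80% (7.47 to 12.6) of those with more copies. It began at 2.79% of all members and at 5.68% of the clustered cytosines. CGGGG alone made up 18.1% (14.9 to 21.6) of the unique isolated cytosines, against 0.345% of all members. CTGGG went the other way, at 4.10% (2.58 to 6.14) of the unique and 7.31% (5.30 to 9.78) of the others. Among the isolated cytosines at 50% or more, CNGGG began at 40% (30.6 to 50.02). CTCCA began at 4.47% (2.88 to 6.58) of the unique isolated cytosines, 1.43% (0.618 to 2.79) of the others and 0.690% of all members. A cytosine cannot begin both CTCCA and CNGGG, because they differ at the third base, and 820 isolated cytosines held neither. Both motifs were read on the strand of the RNA.

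Holding a motif was far from sufficient for a high level. The median level of the 185289 members with CNGGG and of the 45874 with CTCCA was 0, and 0.707% and 0.440% of them reached 20%. Pooled over reads, CNGGG cytosines had a level of 0.527%, CTCCA cytosines 0.349% and cytosines with neither 0.148%. The rate of isolated cytosines was 13.3 per 10000 at CNGGG, 6.98 at CTCCA and 1.28 at neither. By region, CNGGG gave 35.1 isolated cytosines per 10000 in 5′ UTRs (32 cytosines), 9.64 in 3′ UTRs (51) and 7.89 in coding sequence (53). CTCCA gave 18 isolated cytosines in coding sequence and 9 in 3′ UTRs. In 5′ UTRs 0 of 1335 CTCCA cytosines reached 20%, which allows a share of up to 0.225%.

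In 5′ UTRs the isolated cytosine with the highest lower bound lay in CTDNEP1, which encodes a phosphatase of the nuclear envelope, with 18 of 20 reads methylated (interval 68.3 to 98.8%). OSBPL8, a lipid-transfer protein of the endoplasmic reticulum, had 80 of 111 reads (72.1%, 62.8 to 80.2), and its cytosine is followed by GGGG. DGCR2, a membrane protein of the DiGeorge region, had 85 of 120 reads (70.8%, 61.8 to 78.8) at a cytosine 29 nt before its start codon. ULK2, a kinase that starts autophagy, had 26 of 34 reads (76.5%, 58.8 to 89.3), and PRKCZ, an atypical protein kinase C, 22 of 29 (75.9%, 56.5 to 89.7). The intervals of all 5 overlap, so that their order cannot be told. The neighbours within 30 nt had pooled levels between 0 and 1.45%.

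In coding sequence COL4A5, a chain of the type IV collagen of basement membranes, held the isolated exonic cytosine with the highest lower bound. Its cytosine had 594 of 637 reads methylated (93.2%, 91.0 to 95.1), while its 21 covered neighbours had 0.151%. NECTIN2, a cell adhesion receptor, had 72 of 88 reads (81.8%, 72.2 to 89.2) at a CTCCA. NYNRIN, with a domain like that of retroviral integrases, had 131 of 165 (79.4%, 72.4 to 85.3). KREMEN2, a receptor for Dickkopf inhibitors of Wnt signalling, had 22 of 25 (88.0%, 68.8 to 97.5), and GPR137, a lysosomal membrane protein, 26 of 31 (83.9%, 66.3 to 94.5). COL4A5 lay above NECTIN2 and NYNRIN beyond the intervals and could not be told from the 2 shallower sites.

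In 3′ UTRs NIBAN2 had 58 of 67 reads methylated (86.6%, 76.0 to 93.7) and LRRC3 24 of 26 (92.3%, 74.9 to 99.1). AP5Z1, a subunit of the AP-5 adaptor complex, had 109 of 166 (65.7%, 57.9 to 72.8). FURIN, the protease that cleaves many proproteins, had 176 of 276 (63.8%, 57.8 to 69.4) at a CTCCA. NDUFS7, a subunit of respiratory complex I, had 26 of 35 (74.3%, 56.7 to 87.5). NIBAN2 and LRRC3 lay above AP5Z1 and FURIN beyond the intervals.

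In exons of non-coding genes LINC02593 reached 339 of 373 reads (90.9%, 87.5 to 93.6), with 0.0286% at its 14 covered neighbours. NSUN5P1, a pseudogene relative of the rRNA methyltransferase gene NSUN5, had 183 of 341 (53.7%, 48.2 to 59.1), and the unnamed ENSG00000259001 279 of 556 (50.2%, 45.9 to 54.4). MAGI2-AS3 had 15 of 21 (71.4%, 47.8 to 88.7). LINC03072 had 21 of 25 (84.0%, 63.9 to 95.5), but its converted window occurs 58 times in the genome, so its reads may belong elsewhere. The windows of the other cytosines named in these 4 regions have 1 copy.

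**Figure D4:**
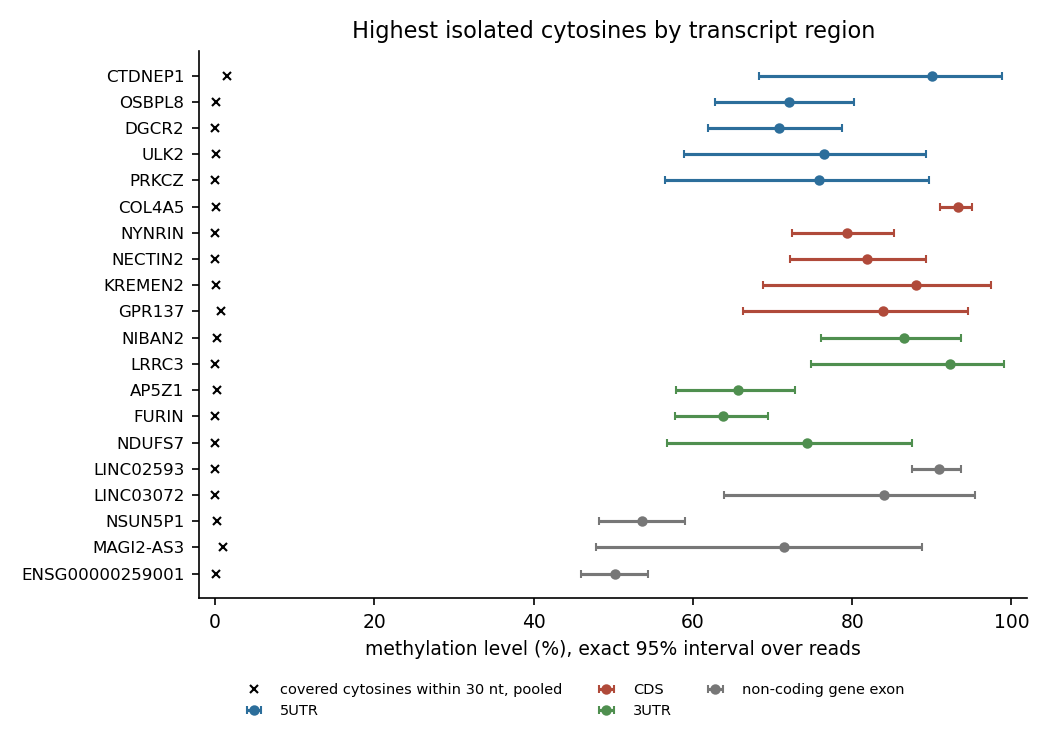
Methylation level (%) of the 5 isolated cytosines with the highest lower bound in each of 5′ UTR, coding sequence (CDS), 3′ UTR and exons of non-coding genes, with exact 95% intervals over reads. Crosses mark the pooled level of the covered cytosines within 30 nt, all of which lie at or below 1.45%.

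Deep cytosines gave the narrowest intervals. The members chosen here after their values were seen are isolated cytosines with at least 500 reads, 26 in all. RPSA, a protein of the small ribosomal subunit, had 6436 of 11051 reads methylated at a CTCCA of its coding sequence (58.2%, 57.3 to 59.2), and 0.0302% at 12 neighbours. The converted window of RPSA has 29 copies in the genome. Its pseudogenes RPSAP19 and RPSAP6 carry the same 21 nt and were listed with 22 of 33 (66.7%, 48.2 to 82.0) and 19 of 39 reads (48.7%, 32.4 to 65.2), so that reads of these genes cannot be told apart. APRT, the adenine salvage enzyme, had 1775 of 4582 reads (38.7%, 37.3 to 40.2) at a CNGGG with a unique window. P3H1, a prolyl hydroxylase of collagens, had 323 of 650 (49.7%, 45.8 to 53.6). CSNK1A1, casein kinase 1 alpha, had 377 of 1198 in its 5′ UTR (31.5%, 28.8 to 34.2). NDUFB7, another subunit of complex I, had 624 of 2137 (29.2%, 27.3 to 31.2). Apart from COL4A5, the only deep site of this set in an exon above 60% was an exon of CDK5RAP3 outside its coding transcripts, with 617 of 817 reads (75.5%, 72.4 to 78.4).

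Outside exons some lone cytosines were nearly fully methylated, in unique sequence and in sequence that occurs elsewhere. These were also chosen after their values were seen. The highest lower bounds with unique windows were those of intronic cytosines at chr6:57014171-57014171, minus strand, with no converted read (100%, 96.4 to 100), and at chr9:91197506-91197506, plus strand, with 35 of 35. A cytosine in an intron on chromosome 1 (chr1:91852864-91852864, minus strand) had 3136 of 3421 reads methylated (91.7%, 90.7 to 92.6). Its window is shown because of where else it occurs.
Chromosome 1 cytosine: tttgatccttCgatgtcggct
The unplaced contig GL000220.1 holds the 31 nt around the chromosome 1 cytosine unchanged (bases 117779 to 117809 and again 161751 to 161781), and it also matches the 5.8S rRNA pseudogene RNA5-8SP2 at 90.8% identity over 153 nt on the same strand (bases 112025 to 112177 and 155997 to 156149). Whether these reads came from ribosomal RNA was not tested.

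A pair of cytosines in segments similar to mtDNA shared their 21 nt and their level. The cytosine at chr3:96337262-96337262 had 74 of 161 reads methylated (46.0%, 38.1 to 54.0) and that at chr5:79947049-79947049 had 56 of 122 (45.9%, 36.8 to 55.2), both on the minus strand.
Chromosome 3 and chromosome 5 cytosine: acacaccgccCgtcaccctcc
The converted 31 nt window had 1 copy at the chromosome 3 cytosine and 3 copies at the chromosome 5 cytosine. Whether these reads came from a mitochondrial transcript was not tested.

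Clustered cytosines lay in runs. Joined over gaps of up to 100 nt, the 16466 clustered cytosines made 2137 stretches, with a median of 7 cytosines and a median level of 32%. Introns held 860 of the stretches and 3′ UTRs 531. Long stretches, of at least 15 clustered cytosines, were of 2 kinds. In 28 of them, with 1073 cytosines, the median level was at least 95%, and 20 of these lay opposite an exon. In the other 90 the median of the median levels was 41.4%, and 39 lay in introns and 33 in 3′ UTRs.

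Base composition told these 2 kinds of stretch apart. Within the 28 stretches with a median level of at least 95% the strand carrying the calls had 1124 cytosines and the opposite strand 18, which is 1.58% of both together. Within the other 90 the opposite strand had 46.0%. The largest of the 28 covered chr22:22639290-22639810 with 128 clustered cytosines and a median coverage of 175 reads, opposite a long non-coding RNA. Others lay opposite exons of HMGN5, a nucleosome-binding protein (103 cytosines, the lowest at 72%), PELP1, a steroid receptor coregulator (71, the lowest at 85.7%), and PTMAP5, a pseudogene of prothymosin alpha (52, with a median coverage of 2425 reads). The study's methods give non-directional mapping for its bisulfite reads, and how the reads of these stretches were given to a strand was not tested.

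From the stretch opposite PTMAP5 the 30-nt window with the most cytosines at 20% or more is printed, because it shows how densely the calls stand there. Capitals mark the cytosines at 20% or more.
Opposite PTMAP5, chr13:82264368-82264397, minus strand: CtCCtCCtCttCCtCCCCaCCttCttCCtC
All 18 cytosines of this window were at 20% or more, with levels of 99.8 to 100%, and the window holds no guanine.

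In 3′ UTRs most of the clustered cytosines lay in inverted repeats. An inverted repeat, a sequence followed by its own reverse complement, can fold into a long RNA hairpin. Of the 9808 3′ UTR exons searched, 698 (7.12%) held a match to their own reverse complement of at least 100 nt and 70% identity. In the arms of these repeats 3132 of 54203 cytosines reached 20% (5.78%, 5.58 to 5.98), and elsewhere in the searched exons 1228 of 1658379 (0.0740%, 0.0700 to 0.0783). The arms held 3.16% of the cytosines but 74.5% of the 3841 clustered ones and 36.3% of the 251 isolated ones. The difference was as wide at equal local GC content: between 50 and 60% the shares were 6.10% (5.83 to 6.39) in arms and 0.0797% (0.0720 to 0.0880) elsewhere. Whether the pairing of the arms keeps bisulfite from their cytosines was not tested.

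**Figure D5:**
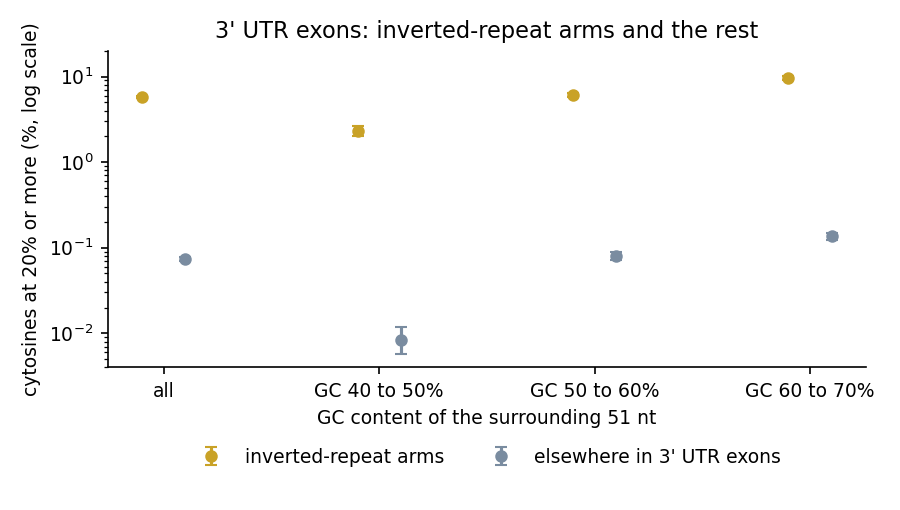
Share of 3′ UTR cytosines at 20% or more (percent, log scale, exact 95% intervals over cytosines) inside inverted-repeat arms and elsewhere in the searched 3′ UTR exons, for all cytosines and in 3 bands of local GC content. The arms lie above the rest in every band, for example 6.10% against 0.0797% at a GC content of 50 to 60%.

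Cytosines at 20% or more were found in few genes. Of 15872 genes with at least 20 covered exonic cytosines, 12475 of them protein-coding, 1454 (9.16%) had a cytosine at 20% or more. An isolated cytosine was found in 626 genes (3.94%) and a clustered one in 817 (5.15%), and 130 genes had both. The pooled level of a gene had a median of 0.0662% and lay below 0.549% in 95% of genes. The 100 genes with the most clustered cytosines held 32.2% of those in genes.

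The genes with the most clustered cytosines were GATD1 (103 cytosines, median level 36.2%), NICN1 (67, 47.7%), DESI1, a desumoylating isopeptidase (48, 67.9%), and ICMT, which methylates prenylated proteins (46, 39.5%). All of their clustered cytosines lay in inverted-repeat arms of the 3′ UTR. Many of their converted windows were not unique. The median number of copies was 832 and 41290 in long stretches of NICN1. It was 1521 in a long stretch of DESI1 and 1887.5 in that of ICMT, so reads there may belong elsewhere. POU3F3, a transcription factor of neural progenitors, came next with 45 (median level 40.4%), of which 24 lay in its coding sequence, where inverted repeats were not searched.

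No gene had more than 3 isolated cytosines. A single one was found in 587 genes, 2 in 35, and 3 in 4 genes: AKT2, GATD1-DT, TAF8 and TIMM50. The 35 genes with 2 share the fifth place, and none of them is singled out. AKT2, a kinase of insulin signalling, had 26 of 37 reads methylated at the highest of its cytosines, in the 5′ UTR (70.3%, 53.0 to 84.1), and all 3 windows were unique. TIMM50, part of the protein import machinery of mitochondria, had 170 of 350 reads (48.6%, 43.2 to 53.9) at a CTCCA of its 3′ UTR with a unique window, whereas the other 2 windows had 105 and 17875 copies. For TAF8, a subunit of the general transcription factor TFIID, all 3 windows had many copies, the fewest being 57.

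The gene groups were read against 0.158% of exonic cytosines at 20% or more and 1.21 isolated cytosines per 10000 over all genes. Over all genes 7511 of the 8695 cytosines at 20% or more were clustered. So were 95 of 111 in the ribosomal protein list, 34 of 41 in translation factors and 45 of 52 in the respiratory chain list. Clustered were also 13 of 15 in hnRNP and SR proteins, 15 of 16 in long non-coding RNAs, 7 of 8 in glycolysis and 4 of 7 in chaperones. Whether clustered cytosines carry m5C was not tested. Depth differed between the groups. The median over genes of the mean coverage was 87.5 reads for all genes. It was 79.9 for the m5C writers, readers and oxidases and 204 to 956 for the other lists. Over all members the share at 20% or more fell with depth, and whether depth accounts for the shares below was not tested. Among 13 covered genes of m5C writers, readers and oxidases, 1 of 4996 cytosines reached 20%. It lay in the 3′ UTR of NSUN2 itself, had 80 of 164 reads methylated (48.8%, 40.9 to 56.7) and is followed by a run of guanines, at a window with 1 copy.

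Among 84 genes of the ribosomal protein list 111 of 32755 cytosines reached 20% (0.339%), in 15 genes, and 8 were isolated. RPL7L1, a relative that the name pattern admits and not a ribosomal subunit, held 40 of them, and RPL37 14. Without RPL7L1 the share was 0.223% (71 of 31814). Of the isolated ones RPSA held 2. For RPS29 the same 21 nt stand in a pseudogene, ENSG00000219928, with 483 of 1704 reads methylated (28.3%, 26.2 to 30.6) against 10 of 50 in RPS29 (upper bound 33.7%).

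Translation factors had 41 of 28420 cytosines at 20% or more (0.144%) in 7 of 64 genes. EIF2S3, a subunit of the initiation factor that brings the initiator tRNA, held 19 of them and EIF4A1, an RNA helicase, 8. The list is a name pattern and takes in kinases such as EIF2AK4 (6) and EEF2K (4); without the kinases and lysine methyltransferases the share was 0.126%. Of the 7 isolated cytosines EEF1D, an elongation factor subunit, held 2 with unique windows, at 32 of 58 reads (55.2%, 41.5 to 68.3) and 24 of 44 (54.5%, 38.8 to 69.6), both in its 5′ UTR. EIF2S3 also held 2, but their windows have 605 and 36 copies, so their reads may belong elsewhere.

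Nuclear-encoded subunits of the respiratory chain and ATP synthase had 52 of 16757 (0.310%) in 8 of 80 genes, led by NDUFV3 with 16, and by NDUFS1 and NDUFA3 with 8 each. In 4 of these genes lay 5 isolated cytosines. The hnRNP and SR proteins, which bind and splice mRNA, had 15 of 18866 (0.0795%), of which HNRNPAB held 10 and SRSF11 3. They had 0 isolated, which allows up to 0.0159%. That limit is above the 1.21 per 10000 of all genes, so the 0 is not told apart from it. Long non-coding RNAs and snoRNA hosts had 16 of 12339 (0.130%), 10 in OIP5-AS1 and 6 in NEAT1.

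Glycolytic enzymes had 8 of 8917 cytosines at 20% or more (0.0897%), all in PFKL, a phosphofructokinase. Chaperones had 7 of 8134 (0.0861%), 4 of them in HSPD1, the mitochondrial chaperonin, and 1 each in CCT5, CCT7 and HSPA5. The last 3 were isolated, 3.69 per 10000. That rate rests on 3 cytosines, so no difference from the 1.21 per 10000 of all genes is read from it. Cytoskeletal genes had 0 of 6378, which allows a share of up to 0.0470% if cytosines are taken as independent. The list has 16 genes, and over all genes only 9.16% held a cytosine at 20% or more. The median over its genes of the mean coverage was 956 reads, and all members with at least 500 reads had 0.0754%. No difference from all genes is therefore read from this 0. Of the short structured RNAs only 2 of 8 had enough covered cytosines, with 0 of 169, which allows up to 1.78%.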

How the data were processed

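Bisulfite RNA sequencing was done on 2 HEK293 samples. Per the labels and the study's methods, reads were trimmed and mapped to hg19 (GRCh37) with Bismark in non-directional mode; its version is not given in the sources used here. Levels were computed both with and without PCR duplicates, and which of these the table holds is not given. The authors deposited 1 table for both samples, holding, for each position, 2 read counts (methylated, unmethylated) and the percent methylated. Deposited positions count from 0 (all 10669167 positions with at least 10 reads then fall on C or G of the reference) and were raised by 1; strand was taken from the reference base.

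Cytosines with at least 20 reads were kept. Coverage is the sum of both counts, and the level is the methylated count over it. Transcript regions came from GENCODE v44 lifted to GRCh37, taken over all transcripts in the order coding sequence, 5′ UTR, 3′ UTR, other exons, intron. Cytosines in exons of several genes were left out of gene counts. Inverted repeats in 3′ UTR exons and segments similar to mtDNA (785 matches, widened by 20 nt) were found with blastn 2.17.0. Copies of converted 31-nt windows were counted exactly on both strands of the genome. Intervals were computed with scipy 1.17.1, and calling was tested on simulated data.

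Named were, per region, the 5 isolated cytosines with the highest lower bound (1 per gene), the 5 genes with the most isolated and the most clustered cytosines, and, per gene list, the 2 members with the most called cytosines; members and lists were chosen with earlier results of these data known. No model was fitted and no p-value was computed, since the pooled table has no replicates. The 6 crosslinking samples were not used here. Alternatives were the coverage minimum, exons only, removal of segments similar to mtDNA, the lower bound in place of the level, the neighbour distance, unambiguous regions and, chosen after seeing the data, unique windows.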

Additional observations from a re-analysis of the deposited data

Results flagged for a closer look

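Outside the nuclear chromosomes, mtDNA positions stood apart, and they are given because they lie outside the comparisons above. Of 5421 mtDNA positions with at least 20 reads, 2424 (44.7%, exact 95% interval 43.4 to 46.1) had a level of at least 20%. The median coverage over all 5421 positions was 298 reads, and that of the 2424 was not taken apart. Pooled over reads, 2.48% of the mtDNA calls were methylated. Both strands are included, and strand was not separated.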

How the results depend on the processing

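The order 5′ UTR, 3′ UTR, coding sequence for the share at 20% or more was kept under the alternatives that give region shares. Region shares were not run for unique windows. Within bands of equal coverage at a GC content of 50 to 60% and 60 to 70%, however, the 5′ UTR lay below the 3′ UTR. At other GC contents the order at equal GC content and coverage was not tested. Of 60 alternative values, 20 moved by less than the counting interval, or by less than 1.5 times for a number, and 40 moved by more. With at least 10 reads the shares at 20, 50 and 80% became 0.516%, 0.115% and 0.0365%, the pooled level 0.177%, the shares in 5′ UTR, coding sequence and 3′ UTR 0.405%, 0.0755% and 0.339%, the isolated cytosines 3082 and the genes with one 1184 (629 in the main analysis, genes of any coverage). With at least 50 reads the same values were 0.150%, 0.0467%, 0.0222%, 0.142%, 0.267%, 0.0483%, 0.169%, 372 and 279, and isolated cytosines were 6.96% of those at 20% or more. In exons on the gene strand the 3 shares were 0.157%, 0.0335% and 0.00587%, the pooled level 0.125% and the isolated cytosines 679 or 7.72%. Without segments similar to mtDNA the pooled level was 0.159% and no other value moved. With the lower bound of each interval as the level the 3 shares were 0.128%, 0.0378% and 0.0211%, the regions in the same order 0.180%, 0.0341% and 0.115%, and the isolated cytosines 427 (5.004%) in 233 genes; their neighbours were then judged by the lower bound too. With positions in the same region in every transcript the regions had 0.435%, 0.0921% and 0.307%. With unique converted windows, chosen after seeing the data, 537 isolated cytosines in 419 genes were left. Neighbours within 15 or 60 nt moved no value. The causes of these moves were not tested. No paired analysis was possible because the table pools both samples. Coverage limits every level: on 20 reads the interval of a level of 20% runs from 5.73 to 43.7%.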
